A study of Mus musculus with 2 samples.

Results

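The genes described here are the expressed members of the mouse Zfp series, zinc finger genes whose symbol is Zfp followed by a number. They were selected on their deposited TPM values: records with such a symbol, Zfp36 left out, that reached 1 TPM in at least 1 library. Level is therefore what chose them, and it uses both libraries. Of 375 records with such a name, 282 (281 symbols, since Zfp91 has 2 records) met that level, out of 12968 named genes that met it in all. RNA sequencing had been carried out on LPC-HRas cells, labelled as mouse hepatocellular carcinoma cells from liver, infected with lentivirus. The control group carried shRFP, a hairpin against a fluorescent protein, and the other group carried shETV4, a hairpin against the ETS-family transcription factor Etv4. Both groups are thus infected cells of the same line, and the labels give no time after infection. Each group had a single library. No test was possible, and every difference describes these 2 libraries alone.

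Classical zinc fingers are short protein loops in which cysteines and histidines hold a zinc ion, and arrays of them read DNA sequence. Many mouse Zfp proteins also carry a KRAB domain, which binds the corepressor Trim28 and, through it, the histone methyltransferase Setdb1, so that retroelements and other bound sites are packed into silent chromatin. KRAB genes arose by repeated duplication and lie in clusters of close relatives. Other Zfp genes are known for other roles, and many of them carry fingers too. They include transcription activators, RNA-binding proteins, ribosome factors and ubiquitin or SUMO ligases.

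Values are TPM, transcript abundance scaled for length and library total, so levels can be set side by side between genes. TPM keeps no record of sequencing depth, and the depth and counting error behind each value are unknown. A difference is the shETV4 value minus the shRFP value, each as log2 of TPM plus a pseudocount of 1. The calls higher and lower mean at least 2-fold on that scale, a difference of 1 or more or of -1 or less. Differences of low genes come out smaller on it than they are. Folds are plain ratios of TPM. The targeted gene Etv4 stood at 73.2 TPM in the control and 16.2 TPM in the shETV4 library, 4.52-fold lower, in the direction of its label. Of the 8 hepatocyte markers looked at, only Trf reached 1 TPM, at 27.5 and 127 TPM, and Alb was listed at 0 in both libraries. Of 6 leukocyte markers only Cd68 reached 1 TPM, at 1.01 and 1.98 TPM, and none of 4 endothelial markers did. Of 4 fibroblast and stellate markers 3 reached it: Col1a1 went from 200 to 229 TPM, Pdgfrb from 59.5 to 77.2 TPM and Dcn from 6.81 to 9.76 TPM, while Lrat was listed at 0. The cells thus had fibroblast-type markers and hardly any hepatocyte ones, and the part of these markers in the results was not tested. In bulk RNA, fewer cells of a type and less RNA per cell cannot be told apart.

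Most of the Zfp genes had lower values in the shETV4 library, usually by less than the call asks. Of the 282 members 206 (73.0%) lay below 0 and 76 above it, where 58.3% of all genes lay below 0. The members' median difference was -0.35, beside -0.10 over all 12968 genes. The members together held 2823 TPM with shRFP and 2479 TPM with shETV4. Called lower were 29 members, or 10.3%, while 7.06% of all genes were called lower. Called higher were 2 members, Zfp618 and Zfp628, beside 3.39% of all genes. After the trend of the difference with GC content over all genes was subtracted, 4 members were past 2-fold upward and 2 downward, beside 3.99% and 2.29% of all genes, and the members' median was -0.06. On the scale of a trimmed mean of log ratios, which lay at -0.12 over all genes, 2 were called higher and 16 lower, beside 4.11% and 5.14% of all genes. The level filter itself shapes these figures: 228 members reached 1 TPM in both libraries, with a median of -0.25, 21 called lower (9.21%) and 1 higher. Another 52 reached it with shRFP alone, 8 of them called lower, and 2 with shETV4 alone, among them Zfp618. The shares of all genes called under these same conditions are not given here, so 9.21% has no matching share to be set beside. Members that passed through 1 library had to be higher there, so the counts over all members are a description and no support. The records with such a name that reached 1 TPM numbered 280 with shRFP and 230 with shETV4.

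**Figure D1:**
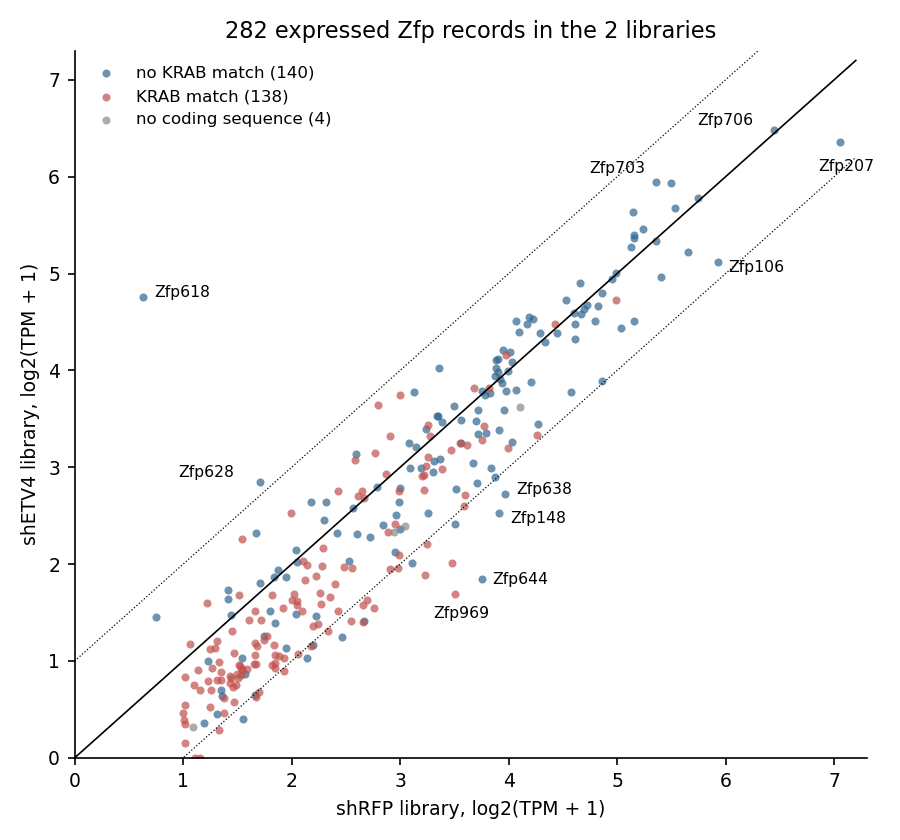
Each point is 1 of the 282 expressed Zfp records, placed by its log2(TPM + 1) in the shRFP library (x axis) and in the shETV4 library (y axis); the solid line marks equal levels and the dotted lines 2-fold. Most points with a KRAB match (138, red) lie at low level below the solid line, and Zfp618 stands alone at the upper left.

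The lowest difference was that of Zfp644, a partner of the histone methyltransferases G9a and GLP. Its level was 12.5 TPM in the control and 2.59 TPM in the shETV4 library, 4.81-fold lower, a difference of -1.91. After GC adjustment it was at -1.44, which made it, with Zfp969, 1 of the 2 members still called lower. Zfp969, a KRAB-type gene of a chromosome 2 cluster, was at 10.3 and 2.24 TPM, a difference of -1.81 and -1.06 after adjustment. All of its 50-base words also occur in transcripts of other genes, so how reads were divided bears on its value. Zfp932, which binds endogenous retroviruses, was at 10.2 and 3.02 TPM, 3.36-fold lower, and at -0.67 after adjustment. Zfp148, a factor that binds GC-rich promoter elements, was at 14.1 and 4.77 TPM and at -0.86 after adjustment.

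The next members in the order also stood at low or moderate levels. Zfp970, another gene of the chromosome 2 cluster, was at 8.40 and 2.71 TPM. Zfp62, with 26 finger matches in its coding sequence, was at 5.36 and 1.67 TPM. Zfp638, which takes part in silencing unintegrated retroviral DNA, was at 14.7 and 5.59 TPM. Each of these stood inside 2-fold after GC adjustment. Zfp386 went from 5.29 to 1.65 TPM, Zfp800 from 4.52 to 1.37 TPM and Zfp940 from 5.76 to 1.92 TPM. Zfp965 had 1.23 TPM in the control and was listed at 0 in the other, and Zfp329 went from 1.94 to 0.32 TPM, so these calls rest on very low levels. Of the 29 members called lower, 15 were at 5 TPM or more with shRFP and 14 under it. With a pseudocount of 5 only 2 of the 29 were called lower, where 2.06% of all genes were, and with 0.1 there were 75 members, where 11.3% of all genes were. Called higher were 1 member with a pseudocount of 5 and 3 with 0.1, beside 1.29% and 5.2% of all genes.

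At the other end Zfp618, whose protein works with Uhrf2 on hydroxymethylated DNA, went from 0.55 to 26.1 TPM. That is 47.4-fold higher, a difference of 4.13, and 3.96 after GC adjustment. Of its 50-base words 0.24% occur in transcripts of other genes and its exons overlap no other gene's. The second was Zfp628, at 2.26 and 6.19 TPM, 2.74-fold higher and just inside 2-fold after adjustment, at 0.94. Zfp688 followed at 5.96 and 11.5 TPM, or 1.93-fold, and Zfp560, a KRAB-type gene, at 6.98 and 12.4 TPM. Zfp560 and Zfp950 have transcripts of low GC content, 42.1% each, and were past 2-fold after adjustment, at 1.48 and 1.26. Zfp950 itself was at 2.98 and 4.77 TPM. Zfp169 went from 1.91 to 3.80 TPM, Zfp296 from 2.18 to 4.01 TPM and Zfp784 from 0.68 to 1.74 TPM, and 94.8% of the exonic bases of Zfp784 are shared with another gene. Zfp524, Zfp707, Zfp395, Zfp653 and Zfp771 were each between 1.41-fold and 1.64-fold higher.

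The measured members known for imprinting control or retroelement silencing were all below 0, where 58.3% of all genes lay. Of 8 listed, 6 were measured, and Zfp708 and Zfp819 stayed under 1 TPM. Zfp57, which keeps methylation at imprinted regions, was at 30.8 and 25.4 TPM, the highest of the list. Zfp445, its partner in imprinting, was at 11.1 and 5.56 TPM. Zfp961 and Zfp809, which recognise the primer binding sites of retroviruses, went from 11.1 to 5.06 TPM and from 4.39 to 1.85 TPM. Zfp568, a repressor of a placental Igf2 transcript, was at 8.30 and 6.59 TPM. Only Zfp932 was called lower, 16.7% of the 6 measured, beside 7.06% of all genes. The list median was -0.90, or -0.51 after GC adjustment, where no member was called.

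The transcription list, made up of 16 factors, was measured in full, with 3 called lower (18.8%), 1 higher (6.25%) and a median of -0.08. Over all genes 7.06% were called lower and 3.39% higher, with a median of -0.10. Beside Zfp644 and Zfp148, Zfp281, a factor of pluripotent cells, was called lower at 10.4 and 4.32 TPM, and at -0.50 after adjustment. Zfp143, which drives small nuclear RNA and many housekeeping promoters, was at 11.7 and 7.26 TPM. The components of one chromatin complex differed little: Zfp592 was at 7.51 and 6.96 TPM and Zfp687 at 25.4 and 24.5 TPM. Zfp410, known for controlling Chd4, was at 28.0 and 26.7 TPM, and Zfp335 at 15.3 and 16.02 TPM. Zfp217, an oncogene that recruits CtBP, was at 15.8 and 21.8 TPM, or 1.38-fold higher. Zfp384, Zfp609, Zfp532, Zfp827, Zfp263 and Zfp341 were within a difference of -0.27 to 0.21.

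Among 10 genes of development, 6 were measured. Zfp42, a pluripotency marker, and Zfp536 were listed at 0 in both libraries, and Zfp423 and Zfp521, factors of adipocyte and blood progenitors, reached at most 0.03 and 0.08 TPM. Zfp703, a repressor amplified in breast cancer, was at 44.01 and 60.1 TPM. Its relative Zfp503 was at 5.90 and 5.94 TPM. Zfp462 was at 15.4 and 8.57 TPM, and its difference of -0.78 was the same after GC adjustment. Zfp292 was the 1 called member, at 3.41 and 1.04 TPM, and stood at -0.30 after adjustment. It made up 16.7% of the 6 measured, where 7.06% of all genes were called lower. Zfp516, a factor of brown fat, and Zfp467 went from 23.4 to 23.2 TPM and from 3.97 to 5.24 TPM.

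Among Zfp genes of RNA and the ribosome, those acting on ribosomes were close to equal before GC adjustment. After it Zfp598 stood at -0.18, Zfp622 at 0.36 and Zfp593 at -0.17. Zfp598, the ubiquitin ligase that marks collided ribosomes, was at 30.9 and 31.1 TPM. Zfp622, which takes part in making the large ribosomal subunit, had a difference of -0.01 at 29.8 TPM in the shETV4 library. Zfp593, of the same process, was at 19.2 and 18.6 TPM, and 77.9% of its exonic bases are shared with another gene. The RNA-binding members Zfp106 and Zfp326 went from 59.8 to 33.8 TPM and from 22.9 to 12.7 TPM. Zfp326 has a GC content of 38.6% and a difference of 0.01 after adjustment, while Zfp106 stayed at -0.54. Zfp346, a binder of double-stranded RNA, was at 17.3 and 22.5 TPM, and Zfp830 at 20.8 and 19.9 TPM. Zfp638 was the 1 member of 8 called lower (12.5%), beside 7.06% of all genes.

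The 7 records of the ubiquitin, SUMO and cell division list all lay below 0, where 58.3% of all genes lay. None was called, and their median was -0.44, or -0.07 after adjustment. Zfp207, a Bub3-binding spindle protein, had the highest level of all members, at 132 and 80.9 TPM, a difference of -0.69 and -0.16 after adjustment. Zfp451, a SUMO ligase, was at 13.7 and 6.45 TPM, 2.12-fold lower as a plain ratio, with a difference of -0.98. The ubiquitin ligase gene Zfp91 was at 23.4 and 19.1 TPM in one record and 7.27 and 4.27 TPM in the other, which the annotation used here does not hold. Zfp330, a nucleolar protein, was at 49.4 and 36.2 TPM. Zfp277 went from 12.9 to 9.25 TPM and Zfp365 from 6.96 to 5.23 TPM.

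**Figure D2:**
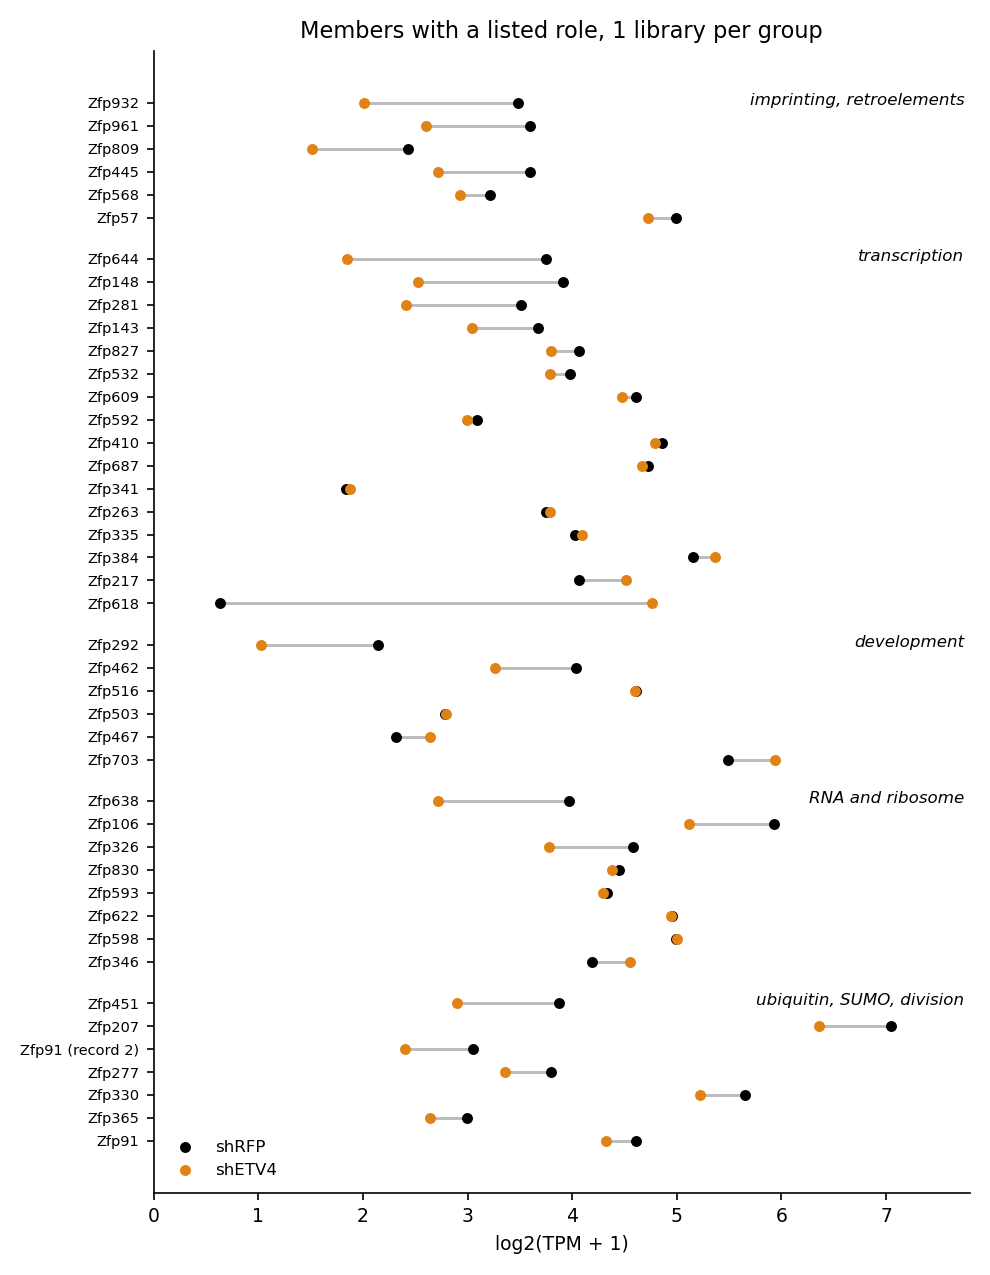
The measured members of the 5 role lists are drawn as log2(TPM + 1) in the shRFP library (black) and the shETV4 library (orange), 1 library each and without error bars. All 6 members of the imprinting and retroelement list have the orange point to the left of the black one, whereas Zfp598, Zfp622 and Zfp593 have both points together.

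High-level members lay nearer to equality. The 34 members with a mean of 20 TPM or more had a median of -0.04 and none was called, the 110 between 5 and 20 TPM a median of -0.22, and the 138 under 5 TPM a median of -0.56. The median GC content of these groups was 53.1%, 51.0% and 43.99%, and after GC adjustment their medians were -0.03, -0.12 and -0.02. The 52 members that reached 1 TPM with shRFP alone had means of at most 1.84 TPM, so all are in the group under 5 TPM. The level filter required each of them to lie below 0, so the median of that group is partly set by the filter. Behind Zfp207, Zfp706 was at 86.0 and 88.2 TPM, Zfp637 at 52.5 and 53.8 TPM, Zfp740 at 45.3 and 50.3 TPM and Zfp358 at 36.8 and 43.0 TPM. Zfp395 went from 40.01 to 60.5 TPM and Zfp771 from 34.4 to 48.6 TPM. Abundant members thus differed in both directions, and none reached the call. Zfp146, named here for its size, came nearest at 27.97 and 13.8 TPM, a plain ratio of 2.02 and a difference of -0.97.

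The coding sequences were searched for a KRAB pattern and for finger matches. The pattern was widened after the differences had been seen, so both versions are given. The first, narrow pattern matched 111 of the 278 members with an annotated coding sequence. It gave a median difference of -0.50 with 8 called lower (7.21%) for the matches. For the other 167 the median was -0.22 with 21 called lower (12.6%), beside 7.06% of all genes. It missed genes of the chromosome 2 cluster, among others, and the wider pattern matched 138 and left 140. With it the matches had a median of -0.53 with 18 called lower (13.0%), and the rest one of -0.09 with 11 called lower (7.86%). The share of calls on each side of the split therefore depended on the pattern. No match does not show that the domain is lacking. The 11 neighbours on chromosome 7 at chr7:24081924-25227507 had no match, and whether any of them carries the domain was not tested.

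Under both patterns the KRAB members had the lower median, and base composition moved with it. By the wider pattern the median GC content was 44.2% with a match and 51.4% without, and by the narrow one 45.8% and 49.8%. After GC adjustment the medians were -0.05 and -0.09 by the wider pattern, and -0.06 and -0.08 by the narrow one. The KRAB members were also low, with a median of 3.04 TPM in the control and 1.85 TPM in the shETV4 library by the wider pattern, against 12.04 and 9.46 TPM without a match. The GC adjustment took no account of this unlike level. The number of finger matches had a median of 10 and reached 31 in Zfp236, which was at 8.91 and 7.39 TPM. Members with 11 or more had a median difference of -0.47 and those with up to 5 of -0.07, or -0.04 and -0.06 after adjustment.

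Across the 281 members with a known transcript, the difference had a rank correlation of 0.70 with GC content, beside 0.52 across all 12947 genes with a GC value. Genes share the 2 libraries and are not independent, so both are descriptions. The members were cut into 5 groups of rising GC content. In the lowest, from 35.7% to 42.0%, 17 of 56 (30.4%) were called lower and the median was -0.82. Other genes in that range of GC content had 32.4% called lower and a median of -0.79. In group 2, up to 45.5%, 17.9% of 56 members and 16.2% of other genes were called lower, and the medians were -0.66 and -0.56. Group 3 had medians of -0.36 and -0.27, group 4 of -0.13 and 0.01, and group 5, from 55.0% up, of 0.14 and 0.15. Called lower in groups 3, 4 and 5 were 3.51%, 0% and 0% of members, beside 5.31%, 2.52% and 1.90% of other genes. The members' median was below that of the other genes in each of the 5 groups, by between 0.01 and 0.14. Groups 1 and 2 held 27 of the 29 members called lower. Within them, members with a KRAB match had medians of -0.76 and -0.56, and those without one -0.84 and -0.74. By the narrow pattern these were -0.75 and -0.59 with a match, and -0.84 and -0.70 without. Group 3 went the other way, at -0.44 with a match and -0.28 without under both patterns. In group 4 the medians were -0.14 with a match and -0.12 without by the wider pattern, and -0.07 and -0.13 by the narrow one, and in group 5 they were 0.09 and 0.15 by both. The KRAB members thus had the lower median in some groups of GC content and the higher in others.

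**Figure D3:**
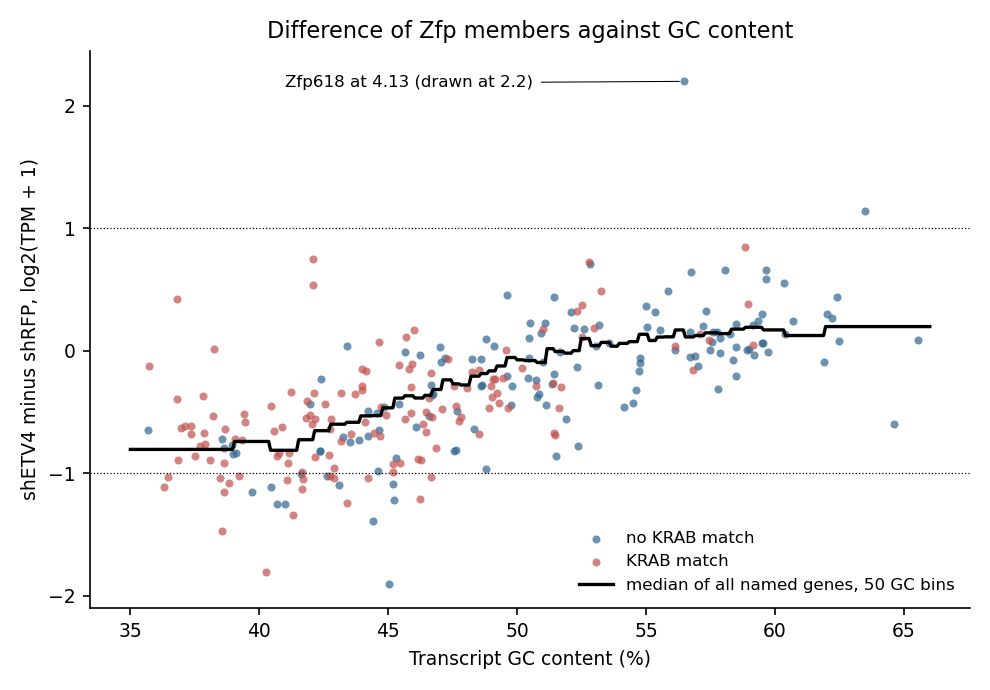
The difference between libraries (y axis, log2 scale) is plotted against median transcript GC content (x axis, percent) for members with (red) and without (blue) a KRAB match; the black line is the median of all named genes in 50 bins of GC content and dotted lines mark 2-fold. The members run along the black line, with Zfp618 (drawn at the upper edge) far above it.

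Position was looked at next, with 2 spacings tried. With members under 1000000 bases apart joined, and at least 5 members asked for, 139 members fell into 17 clusters and 143 lay outside them. Chromosome 7 held 73 members, chromosome 17 held 32 and chromosome 2 held 21. Cluster medians ran from -1.08 on chromosome 2 to 0.46 for 6 genes on chromosome 7 at chr7:4915217-5053723. That last cluster holds Zfp628, Zfp524 and Zfp784, has a median GC content of 62.3% and no member below 0. Of the exonic bases of its members Zfp784, Zfp524 and Zfp865, 94.8%, 51.6% and 28.4% are shared with another gene. The 10 members at chr7:127233061-127885996, with Zfp771 and Zfp688, had a median of 0.10. On the lower side were 6 members at chr4:146449023-147848366, all below 0 with a median of -0.85 and a GC content of 38.5%, and 6 at chr13:67490167-67827002, also all below 0, with a median of -0.88. Over all genes 58.3% lay below 0. The largest cluster, 16 members at chr17:21008903-23599487, had a median of -0.64, or 0.05 after GC adjustment. After adjustment the cluster medians lay between -0.27 and 0.36, the lowest again on chromosome 2. This spacing replaced one of 500000 bases after values had been seen. The shorter one gave 14 clusters with 112 members and medians from -0.88 to 0.46, and the chromosome 2 genes then formed no cluster.

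**Figure D4:**
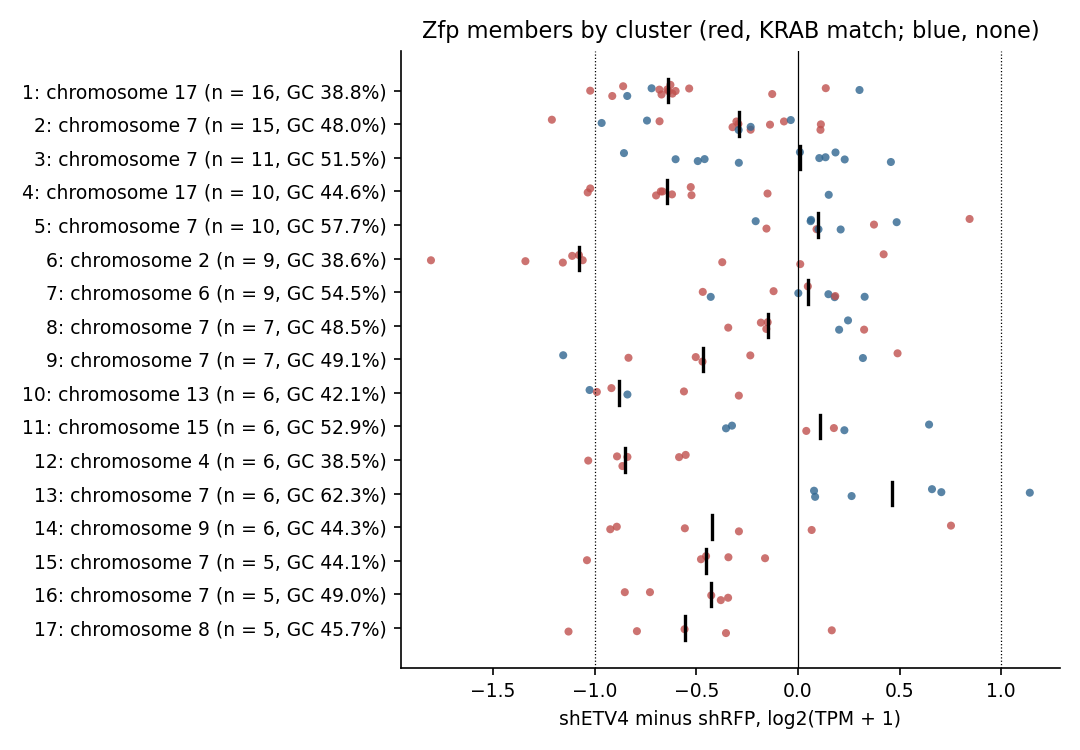
Each point is the difference of 1 member (x axis, log2 scale) in 1 of 17 clusters (rows, with chromosome, number of members and median GC content); red points have a KRAB match, blue points none, and the black bars are cluster medians. Cluster 13 lies wholly above 0, clusters 10, 12, 15 and 16 wholly below, and cluster 6 on chromosome 2 spreads from -1.81 to 0.42.

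The chromosome 2 cluster, at chr2:175372436-178078476, had the widest range of differences, and it was singled out after its values were seen. All 9 members have a KRAB match. Called lower were 6 of the 9, where 7.06% of all genes were. They were Zfp969 and Zfp970, Zfp971 at 5.29 and 1.98 TPM, Zfp973 at 5.46 and 2.10 TPM, and Zfp965 and Zfp968. Zfp965 and Zfp968 had 1.23 and 1.16 TPM in the control and were listed at 0 in the other library. Zfp931 was at 2.78 and 1.92 TPM. Zfp967 was equal in the libraries, at 5.37 and 5.42 TPM, and Zfp966 was at 6.48 and 9.02 TPM, past 2-fold upward only after GC adjustment (1.23). A median of 90.0% of the 50-base words of these members also occurs in transcripts of other genes, so how reads were divided among copies bears on each value, and no source used here says how this was done.

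Most promoters of this cluster share long runs, and they are shown because genes with like promoters had unlike differences. The windows are the 250 bases before the start of the RefSeq gene on GRCm38.p6, written 5′ to 3′ on the gene's strand, and 8 of the 9 members have one. Capitals mark the longest run that all 8 windows share, 41 bases. The windows are Zfp966 at chr2:175931101-175931350 on the minus strand, Zfp970 at chr2:177464492-177464741 and Zfp971 at chr2:178023034-178023283 on the plus strand, and Zfp931 at chr2:178078426-178078675 on the minus strand.
Zfp966: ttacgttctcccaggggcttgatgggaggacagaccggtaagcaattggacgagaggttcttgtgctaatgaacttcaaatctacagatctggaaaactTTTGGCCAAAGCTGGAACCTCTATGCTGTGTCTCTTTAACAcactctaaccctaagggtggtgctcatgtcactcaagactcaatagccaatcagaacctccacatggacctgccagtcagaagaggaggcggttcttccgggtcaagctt
Zfp970: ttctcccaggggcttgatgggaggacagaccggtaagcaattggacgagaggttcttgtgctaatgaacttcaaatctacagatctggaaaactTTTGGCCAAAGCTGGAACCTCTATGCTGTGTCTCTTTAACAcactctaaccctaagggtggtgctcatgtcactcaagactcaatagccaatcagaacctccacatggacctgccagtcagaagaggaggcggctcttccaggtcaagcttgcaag
Zfp971: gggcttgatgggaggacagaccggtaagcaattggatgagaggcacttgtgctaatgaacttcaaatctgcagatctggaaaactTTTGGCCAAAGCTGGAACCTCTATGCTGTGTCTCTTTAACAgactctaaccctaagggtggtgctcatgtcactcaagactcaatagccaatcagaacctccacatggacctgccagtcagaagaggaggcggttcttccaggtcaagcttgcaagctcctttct
Zfp931: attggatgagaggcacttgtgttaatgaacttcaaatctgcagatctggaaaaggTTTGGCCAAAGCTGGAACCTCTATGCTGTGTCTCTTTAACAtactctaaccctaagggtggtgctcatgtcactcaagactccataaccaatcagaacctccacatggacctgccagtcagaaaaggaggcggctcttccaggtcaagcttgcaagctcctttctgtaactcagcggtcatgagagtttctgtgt

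The window of Zfp967, at chr2:176520754-176521003 on the plus strand, was identical to that of Zfp966 over all 250 bases. Zfp966 and Zfp970 shared an unbroken run of 227 bases, and their differences were 0.42 and -1.34. Zfp931 shared no more than the 41 marked bases without a break with any of the others. The run stands in 12 of 32851 RefSeq windows of this length, and the other 4 belong to Gm14288, Gm14295, Gm14325 and Gm14440, also on chromosome 2. Gm14295 was at 5.39 and 8.17 TPM and Gm14288 at 4.39 and 0.82 TPM, so genes with the marked run lay on both sides of 0.

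Of 2 motifs searched, both chosen after differences had been seen, the first was CCGGAA, the core letters of ETS-family factors such as Etv4. This motif, on either strand, stands in 12.03% of all 32851 windows, in 22.4% of the 11792 windows of expressed protein-coding genes and in 30.6% of the 281 windows of members. In the chromosome 2 cluster the windows of Zfp965, Zfp966 and Zfp967 hold it once and the other 5 do not. The 281 windows belong to 231 members, some of which have more than 1. A member counts as having the motif if any of its windows holds it. Of the 231 members with a window, the 79 with the motif had a median difference of -0.46 with 5 called lower. The 152 without it had -0.34 with 21 called lower, where 7.06% of all genes were called lower. Their median GC content was 45.3% with the motif and 46.8% without. The letters CCAAT, the box of a general promoter factor, stand on either strand in 46.3% of the members' windows, 35.8% of those of expressed coding genes and 33.8% of all. The 116 members with it had a median difference of -0.50, 17 called lower and a median GC content of 44.7%. The 115 without it had -0.23, 9 called lower and 49.1%. A match is a description of the letters and not a binding site. For contrast, the window of Zfp618, at chr4:62965317-62965566 on the plus strand, is 88.8% G and C and holds neither motif.
Zfp618: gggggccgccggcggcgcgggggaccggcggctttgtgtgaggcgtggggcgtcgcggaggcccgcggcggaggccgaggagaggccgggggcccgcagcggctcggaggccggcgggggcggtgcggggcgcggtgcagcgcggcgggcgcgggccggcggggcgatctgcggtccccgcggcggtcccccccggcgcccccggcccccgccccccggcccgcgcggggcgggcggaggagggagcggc

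Transcripts of all the listed genes whose proteins KRAB factors work through were measured, and no protein was. Trim28 itself was at 390 and 372 TPM and Setdb1 at 45.2 and 43.5 TPM. Of 23 corepressor genes none was called higher and 2 (8.70%) were called lower, near the 7.06% of all genes, with a median of -0.18 and of -0.11 after GC adjustment. The called genes were Cbx3, a heterochromatin protein, at 127 and 61.7 TPM, and Suv39h2, a histone methyltransferase, at 12.1 and 4.97 TPM. Both were inside 2-fold after adjustment. Of the 4 HUSH complex genes, whose products silence retroelements, 2 (50%) were called lower, beside 7.06% of all genes. These were Pphln1, at 43.0 and 11.5 TPM, and Mphosph8, at 9.69 and 3.90 TPM. Pphln1 stood at -1.43 after adjustment and Mphosph8 at -0.40.

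Other zinc finger families lay on both sides of the Zfp median. The median difference was -0.15 for 36 Zbtb genes, -0.14 for 16 Zscan and Zkscan genes, -0.51 for 15 Zc3h genes and 0.02 for 21 Klf and Sp genes. After GC adjustment these were -0.09, 0.01, -0.25 and -0.04. None of these differences between families was tested.

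The rule's level threshold passed Zfp760, Zfp820 and Zfp583 at 1, 1.01 and 1.02 TPM in the higher library. It left out Zfp595, Zfp558 and Zfp951 at 0.95, 0.95 and 0.94 TPM. Of the 93 records left out, 26 were listed at 0 in both libraries.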

How the data were processed

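Total RNA of 2 LPC-HRas libraries, 1 per group by treatment label, was sequenced after TruSeq preparation, per the labels' protocols. The authors deposited 1 TPM column per library; that unit was read from the totals of 999999.77 and 999870.3, since the headers name none. Both column names end in _2, and whether this marks a run or a replicate is not known. The submitters' processing notes list HISAT2, RSEM and GRCm38.p4 with no version and no role. The sources used here state neither annotation, strand setting nor filters. TPM keeps no depth, so no interval or floor is given. Of 55640 records, 153 without a symbol were left out.

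The members, lists and rules were chosen with earlier results of these data known. Named are the 12 largest differences in each direction, the 10 highest means, members of the role lists, those at the 1 TPM threshold and called corepressor genes; other genes were named with their values in view. After differences had been seen, the KRAB pattern was widened (2 patterns tried), the cluster spacing was raised from 500000 to 1000000 bases (2 tried, since the shorter one left the chromosome 2 genes in no cluster), and the promoter set, its shared run and both motifs were chosen; the report gives both patterns and both spacings. GENCODE M21 (GRCm38) gave position, transcript GC content and length as medians over transcripts, and coding sequence, and matched 281 members. GC adjustment subtracts the median difference in 50 bins of GC content. Words of 50 bases were compared over all transcripts. Promoters came from RefSeq. KRAB was searched as a short amino acid pattern around its conserved tryptophan, and fingers by the spacing of cysteines and histidines. Other pseudocounts (0.1, 5), filters (none, 5 TPM) and the trimmed mean scale (30% of ratios, 5% of means) were tried. The difference and GC steps were tested on simulated data. Software was Python 3.11.15 with scipy 1.17.1, pandas 2.3.3, matplotlib 3.10.9 and numpy 2.4.6.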

Additional observations from a re-analysis of the deposited data

How the results depend on the processing

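With 1 library per group no replicate could be left out, and no depth is known. No paired analysis was possible because each group has 1 library. Against 29 members called lower and 2 higher, a pseudocount of 0.1 gave 75 lower and 3 higher, and a pseudocount of 5 gave 2 lower and 1 higher. At 5 TPM or more 15 of 156 were lower and 2 higher, and on the trimmed mean scale 16 were lower and 2 higher. After GC adjustment 2 were lower and 4 higher, and without a filter the counts were 29 and 2. The share of all genes called at 5 TPM or without a filter is not given here. The median of -0.35 was -0.43 with pseudocount 0.1, -0.19 with 5, -0.25 without a filter, -0.16 at 5 TPM, -0.27 on the trimmed mean scale and -0.063 after GC adjustment. It kept its sign under these 6 alternatives. Fewer members (156 of 282) stand behind the 5 TPM values; the other causes were not tested. Of the 67 named records, 13 called ones came inside 2-fold with pseudocount 5, 13 after GC adjustment and 1 on the trimmed mean scale, and no called record changed sign. The alternatives below were added after seeing the data. With the narrow KRAB pattern in place of the wider one, 8 members with a match (7.21%) were called lower in place of 18 (13.0%). Without a match 21 (12.6%) were called lower in place of 11 (7.86%), and the median there was -0.22 in place of -0.09. Fewer members matched (111 in place of 138). With a cluster spacing of 500000 bases the lowest cluster median was -0.88 in place of -1.08, since the chromosome 2 genes then formed no cluster.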

Other observations

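KRAB-type genes without a numbered Zfp name, which the report's rule does not take in, were looked at in the same way. With a KRAB match and at least 3 finger matches, 54 such genes reached 1 TPM. Their median difference was -0.67, with 48 (88.9%) below 0 beside 58.3% of all genes, at a median GC content of 40.9%. Called lower were 11 (20.4%) and none higher, beside 7.06% and 3.39% of all genes. After GC adjustment the median was -0.01, with 3 called lower and 1 higher, beside 2.29% and 3.99% of all genes. The 3 were Gm2026, at 5.22 TPM in the control and listed at 0 in the other library, Gm15446 at 4.46 and 0.40 TPM, and 2610021A01Rik at 4.83 and 0.87 TPM. Zik1 was at 3.55 and 1.20 TPM, and Rsl1, a regulator of sex-limited liver genes, at 3.12 and 1.23 TPM. The match was made with the KRAB pattern that was widened after differences had been seen. Genes of the Zfp36 family, which bind AU-rich RNA and are no members of the classical type, were on the other side: Zfp36 was at 8.57 and 10.8 TPM, Zfp36l1 at 19.8 and 23.2 TPM and Zfp36l2 at 134 and 170 TPM, each within 2-fold. These genes were named after their values were seen.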
